A study of Rattus norvegicus with 9 samples.

Results

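miR-132 and miR-212 were followed through rat corneas, untouched or transplanted, as 4 mature strands: rno-miR-132-3p, rno-miR-132-5p, rno-miR-212-3p and rno-miR-212-5p. They were taken by name from a table of 765 mature miRNAs, and all 4 were listed. The table covers 9 small RNA libraries from total RNA of Wistar rat cornea at a postnatal age of 6 weeks. Per the labels, 3 libraries are normal cornea, 3 isograft cornea and 3 allograft cornea. By the meaning of the words, an isograft comes from a genetically matched donor and an allograft from a differing one. The labels do not give donor strain, time after surgery or whether corneas were pooled, and they name no treatment. Titles carry the numbers 12, 34 and 56, whose meaning is not stated, and these serve here as library names. Separate animals are not named for the libraries of a group. The p-values therefore measure only how far these libraries spread, which may be technical.

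A mature miRNA is a short RNA that guides an Argonaute protein to messenger RNAs, mostly through its seed, the bases near its 5′ end. Each hairpin precursor can give a strand from either side, the 5p and the 3p arm, of which one is usually kept. The miR-132 and miR-212 hairpins are cut from 1 primary transcript, which the transcription factor CREB is known to switch on after neuronal activity, growth factor or cytokine signals. miR-132 is known in neurons for its part in dendrite growth, in endothelium as a miRNA that promotes vessel sprouting through the Ras inhibitor RASA1, and in skin wounds as a miRNA of keratinocytes and macrophages. The libraries hold no measure of CREB or of messenger RNAs, so the name CREB-responsive is background and was not tested.

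The mature sequences are shown because 1 pair shares its seed while the other does not. All are from RefSeq on the assembly GRCr8, 5′ to 3′, and capitals mark the seed, bases 2 to 8.
rno-miR-132-3p: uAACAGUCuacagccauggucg
rno-miR-212-3p: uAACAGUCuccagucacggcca
rno-miR-132-5p: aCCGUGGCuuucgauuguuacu
rno-miR-212-5p: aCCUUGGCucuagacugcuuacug

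The 3p arms had the same seed, AACAGUC, and no other of the 693 mature rat miRNA names in the sequence table had it. With positions counted from 1 at the 5′ end and the base of miR-132-3p given first, they differed at A10C, C14U, U17C, U20C and G22A, so 17 of 22 bases were identical. The 5p arms differed within the seed, at G4U, and 14 of their first 22 bases were identical. Neither 5p seed was found in another miRNA name of that table. The 4 strands are therefore distinct at full length. How the authors assigned reads that stop early or match more than 1 miRNA is not given in the sources used here.

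The miR-132 hairpin, shown to place its arms, lies on the plus strand at chr10:60522033-60522133 of GRCr8, and capitals mark first the 5p and then the 3p arm.
Mir132 hairpin: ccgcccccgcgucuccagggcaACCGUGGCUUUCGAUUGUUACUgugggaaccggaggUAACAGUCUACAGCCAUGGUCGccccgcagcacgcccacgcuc

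The miR-212 arms lie upstream on the same strand, at chr10:60521771-60521794 for 5p and chr10:60521811-60521832 for 3p, with 222 bases between miR-212-3p and miR-132-5p. In the gene table of that assembly no other gene overlapped the cluster, and the nearest protein-coding genes on its sides were Hic1 and Ovca2. The deposited table itself gives no coordinates.

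Values are in RPM, the reads of a miRNA relative to all reads counted in its library. That total lay between 11001459 and 12153889 reads, of which listed miRNAs took between 26.4% and 65.6%. Reads of the members could be recovered from the RPM steps, and 1 read was worth between 0.0823 and 0.0909 RPM. Isograft 12 and allograft 34 had the lowest listed share of their groups, 36.8% and 26.4%, and results are also given without them. Normal 12 was the lowest of its group as well, at 46.6%, and was left out only on its own. Isograft 12 also had the highest total, 12153889 reads.

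Of the 4 strands, miR-132-3p, the arm known as the active guide of its hairpin, was the most abundant in the grafts. In normal corneas miR-132-3p stood at 0.999, 0.636 and 0.0908 RPM in libraries 12, 34 and 56, from 11, 7 and 1 reads. In isografts it stood at 5.59, 12.3 and 14.0 RPM, from 68, 135 and 154 reads. In allografts it stood at 8.45, 8.91 and 9.09 RPM, from 93, 98 and 100 reads. Every graft library was above every normal library, the 3 allografts lay close together, and isograft 12 was the lowest graft. The group means of miR-132-3p were 0.575 RPM ± 0.457 for normal corneas, 10.6 ± 4.44 for isografts and 8.81 ± 0.328 for allografts (± SD, n = 3 libraries a group). As a ratio of summed reads this was an 18.2-fold higher level in isografts (95% interval 11.5 to 30.5) and 15.3-fold in allografts (9.64 to 25.8), intervals that cover counting error only.

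miR-132-3p rose in both kinds of graft. Against normal corneas its difference in log2(RPM + 1) was 2.84 in isografts (SE 0.36, adjusted p = 4.2e-07) and 2.68 in allografts (SE 0.36, adjusted p = 4.1e-07; limma, Benjamini-Hochberg adjustment over the 281 miRNAs that reached 5 RPM in 3 or more libraries). Of those 281, 16.7% were called higher in isografts and 23.1% in allografts, and its difference ranked 12th and 27th from the top. Those backgrounds depend on the scaling: of the 281, 66 and 104 were called higher with median-of-ratios scaling, and 107 and 142 when libraries were scaled to their listed miRNAs, against 47 and 65 here. miR-132-3p reached the limit of 5 RPM in the 6 grafts and in no normal library, so the filter itself favoured a difference. In a fit of all 606 miRNAs with a read, its adjusted p was 0.00019 in isografts and 0.00011 in allografts. Between allografts and isografts, where 34.5% of the 281 miRNAs were called, its difference was -0.16 (SE 0.36, adjusted p = 0.763), and the sign turned, to 0.061 with median-of-ratios scaling and to 0.23 when libraries were scaled to their listed miRNAs. Without isograft 12 and allograft 34 it was -0.53 (adjusted p = 0.211).

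miR-212-3p, which carries the same seed, was almost absent from normal corneas. It had 0, 0 and 1 read there, the last equal to 0.0908 RPM. Taken as 3 reads, a one-sided limit, a count of 0 allows up to 0.272 RPM in normal 12 and 0.273 RPM in normal 34, and the two-sided 95% Poisson intervals plotted reach 0.335 RPM. It stood at 1.15, 3.00 and 3.45 RPM in isografts, from 14, 33 and 38 reads, and at 3.09, 1.999 and 3.91 RPM in allografts, from 34, 22 and 43 reads. All 6 grafts were above the normal corneas, while the ranges of the graft groups overlapped. Summed reads were 82.2-fold higher in isografts (14.4 to 3284) and 99.0-fold higher in allografts (17.4 to 3951), wide intervals because the normal corneas held 1 read in all.

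The summed level of the 3p arms that share the seed was 0.605 RPM ± 0.409 for normal corneas, 13.2 ± 5.65 for isografts and 11.8 ± 1.07 for allografts (± SD, n = 3 libraries a group). An exact permutation test over the 3 groups on log2(RPM + 1) gave p = 0.0357. Between allografts and isografts the exact two-sided p was 1, where 3 libraries against 3 cannot go below 0.1.

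miR-132-5p, the minor arm of its hairpin, was low throughout. It stood at 0.182, 0.363 and 0 RPM in normal corneas, from 2, 4 and 0 reads. In isografts it stood at 0.741, 3.27 and 2.63 RPM, and in allografts at 1.09, 2.64 and 1.91 RPM. The lowest grafts, isograft 12 with 9 reads and allograft 12 with 12, were still above the highest normal cornea. Their 95% Poisson intervals, 0.339 to 1.41 and 0.563 to 1.90 RPM, overlapped that of normal 34, 0.099 to 0.930 RPM. Summed reads were 11.9-fold higher in isografts (5.23 to 33.5) and 10.3-fold in allografts (4.49 to 29.3).

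miR-212-5p differed from the other strands in that isografts and allografts did not overlap. In normal corneas it had 1, 0 and 0 reads, the first equal to 0.0908 RPM. In isografts it stood at 2.80, 6.00 and 5.45 RPM, from 34, 66 and 60 reads. In allografts it stood at 1.82, 1.64 and 1.999 RPM, from 20, 18 and 22 reads. Even the lowest isograft was above the highest allograft. Their 95% Poisson intervals overlapped, with 1.94 to 3.91 RPM in isograft 12 and 1.25 to 3.03 RPM in allograft 56. Summed reads in allografts were 0.388 of those in isografts, relative to the library totals behind RPM (0.283 to 0.525), and 60.0-fold higher than in normal corneas (10.4 to 2409.8).

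**Figure D1:**
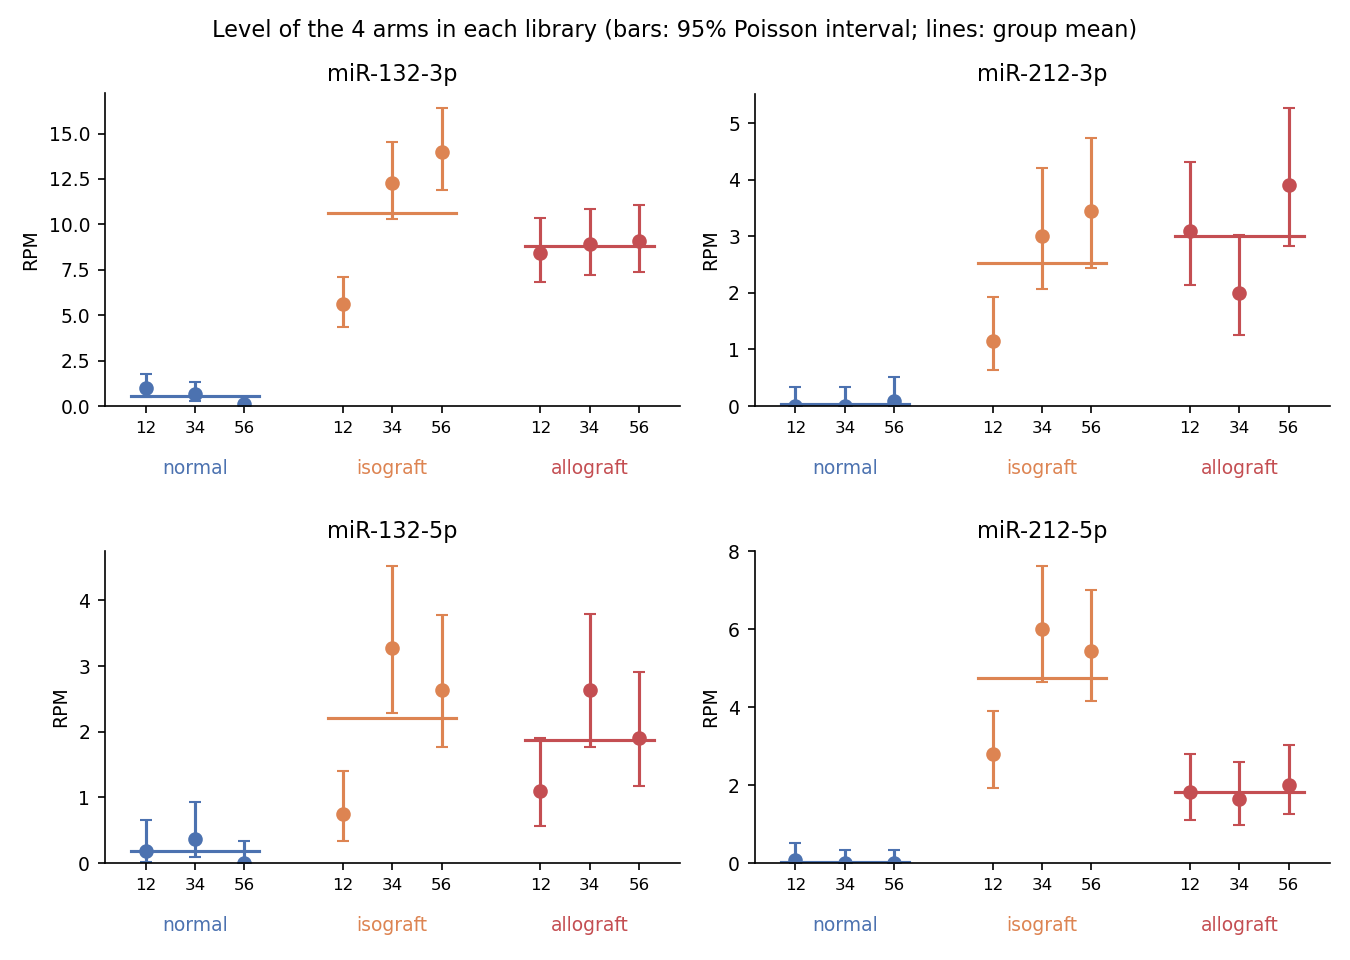
RPM of each strand in each of the 9 libraries, grouped as normal, isograft and allograft on the horizontal axis, with 95% Poisson intervals as bars and group means as lines; each panel has its own vertical scale. All 4 strands are higher in every graft than in every normal cornea, isograft 12 is the lowest isograft in each panel, and in miR-212-5p the allografts, at 1.64 to 1.999 RPM, lie below the isografts, at 2.80 to 6.00 RPM.

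Of the 4 strands only miR-132-3p passed the filter on low values. The other 3 were tested in the fit of all 606 miRNAs with a read, in which 9.41% were called higher in isografts, 17.2% higher in allografts against normal corneas, and 20.1% in either direction between allografts and isografts. Those 57 higher calls in isografts fell to 35 without isograft 34 and 36 without normal 56. The 122 calls between the grafts fell to 50 without isograft 34, 53 without allograft 12, 58 without isograft 56 and 66 without allograft 34. All 3 rose in both grafts. Exact permutation tests over the 3 groups gave p = 0.0036 for miR-212-5p, the smallest these group sizes allow, 0.0214 for miR-212-3p and 0.0429 for miR-132-5p. miR-212-5p had log2 differences from normal corneas of 2.43 in isografts (SE 0.26, adjusted p = 3.6e-05) and 1.45 in allografts (SE 0.26, adjusted p = 0.00068). miR-212-3p had 1.71 (SE 0.29, adjusted p = 0.00076) and 1.93 (SE 0.29, adjusted p = 0.00013). miR-132-5p had 1.36 (SE 0.31, adjusted p = 0.0084) and 1.26 (SE 0.31, adjusted p = 0.0063). The calls of miR-132-5p were lost without any of several single libraries: in isografts without normal 12 (adjusted p = 0.088), normal 56 (0.126), isograft 34 (0.125), isograft 56 (0.151) or allograft 56 (0.0546), and in allografts without normal 12 (0.0526), normal 56 (0.0752), allograft 34 (0.0573) or allograft 56 (0.0601).

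Between allografts and isografts miR-212-5p fell, with a log2 difference of -0.98 (SE 0.26, adjusted p = 0.0196), while miR-212-3p at 0.22 (SE 0.29, adjusted p = 0.636) and miR-132-5p at -0.10 (SE 0.31, adjusted p = 0.875) did not pass. The call of miR-212-5p was lost without isograft 34 (adjusted p = 0.0691), isograft 56 (0.0713), allograft 12 (0.0754) or allograft 34 (0.0699), and in a fit of the graft libraries alone (0.0975). With isograft 12 and allograft 34 both left out, its difference was -1.21 (adjusted p = 0.0058). Differences in log2(RPM + 1) understate the change of strands this low. Fitted to the recovered reads, edgeR adds no 1 RPM, but it also scales the libraries in another way. It gave -1.20 for miR-212-5p (adjusted p = 0.0029). In edgeR the 4 strands were past the threshold in both grafts against normal corneas, by 3.29 to 6.66 in isografts and 3.29 to 6.16 in allografts, where it called 22.8% and 43.7% of the 606 miRNAs; between allografts and isografts it called 35.8%.

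All 4 strands were without overlap above normal corneas in each kind of graft. Over the 606 miRNAs with a read, 17.3% were so in isografts and 24.3% in allografts. Of the same 606, 16.3% were lower in allografts than in isografts without overlap, miR-212-5p among them. Isograft 12 was the lowest isograft for each strand, at 0.741 to 5.59 RPM against 2.63 to 14.0 RPM in the other isografts. Listed miRNAs took 36.8% of its reads, against 54.5% and 48.8% in isografts 34 and 56. Rescaled so that the listed miRNAs of each library make up all its RPM, miR-132-3p stood at 15.2, 22.5 and 28.7 in the isografts and at 24.9, 33.7 and 19.6 in the allografts, so the groups still overlapped and isograft 12 was still the lowest graft. On that scale miR-212-5p stood at 7.59, 11.002 and 11.2 in the isografts and at 5.35, 6.19 and 4.32 in the allografts, again without overlap.

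The ratio of the arms in reads, which does not depend on the library total, separated the hairpins. For miR-132 the 3p arm was in excess in every graft. It made up 88.3%, 78.9% and 84.2% of the reads of both arms in isografts and 88.6%, 77.2% and 82.6% in allografts, from 77 to 183 reads a library. The means of 83.8% ± 4.69 and 82.8% ± 5.70 (SD, n = 3 each) did not differ beyond the spread (exact permutation test, two-sided p = 0.8). For miR-212 the arm in excess was not the same in the graft groups. The 3p arm made up 29.2%, 33.3% and 38.8% in isografts, from 48, 99 and 98 reads, and 63.0%, 55.0% and 66.2% in allografts, from 54, 40 and 65 reads.

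In isografts the 5p arm of miR-212 was thus the more abundant in each library, and in allografts the 3p arm. The groups did not overlap, with means of 33.8% ± 4.82 and 61.4% ± 5.74 (SD, n = 3 each; exact permutation test, two-sided p = 0.1, the smallest that 3 against 3 can give). The 95% exact binomial intervals of the isografts reached at most 49.2%, while those of allografts 12 and 34 began at 48.7% and 38.5%, so single libraries are not all set apart by their counts. Over summed reads the share was 34.7% (28.7 to 41.0) in isografts and 62.3% (54.2 to 69.8) in allografts. Without isograft 12 and allograft 34 it was 36.0% and 64.7%.

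**Figure D2:**
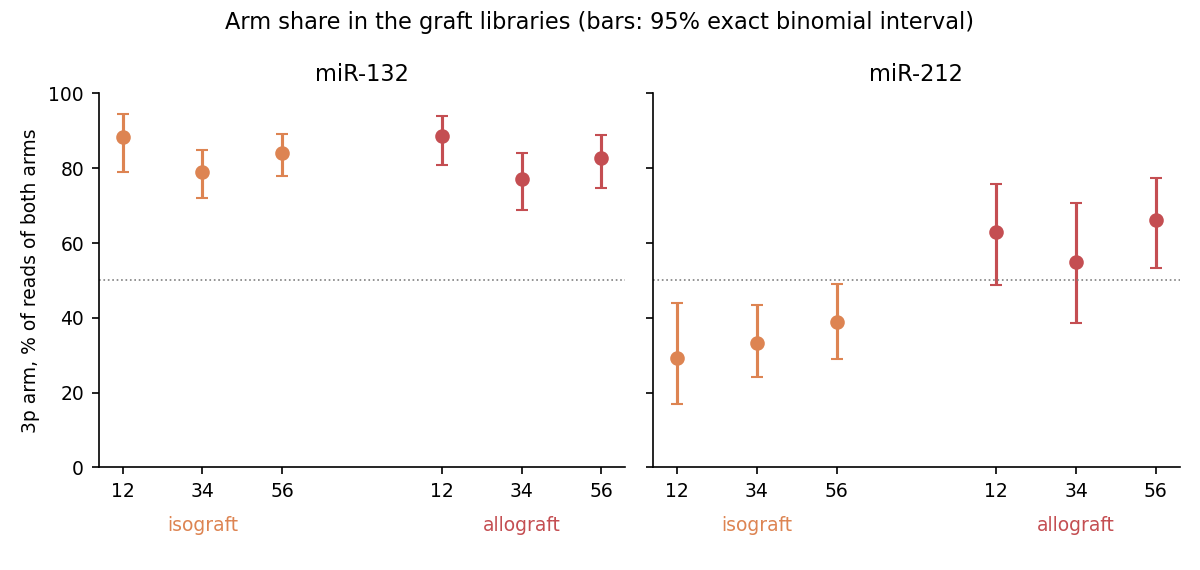
Share of the 3p arm among the reads of both arms, in percent, for miR-132 (left) and miR-212 (right) in the 3 isograft and the 3 allograft libraries, with 95% exact binomial intervals as bars and a dotted line at equal arms. miR-132 lies between 77.2% and 88.6% in all 6 grafts, while miR-212 lies between 29.2% and 38.8% in isografts and between 55.0% and 66.2% in allografts.

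The arm ratio was also tested over the 109 precursors whose arms both reached 1 RPM in at least 3 libraries. Between allografts and isografts the log2 ratio of 3p to 5p of miR-212, with 1 RPM added to each arm, rose by 1.20 (SE 0.21, adjusted p = 0.0039; limma, Benjamini-Hochberg adjustment over the precursors). By p-value it ranked 2nd of 109, of which 12.8% were called. The call held without each single library and without isograft 12 and allograft 34 together. All these fits include normal corneas, which held 2 reads of miR-212 in all. The 1 RPM added holds their ratio near 0, so they add little spread and the SE may be too small. It also makes the ratio of arms this low depend in part on the library total, and other scalings were not fitted. The ratio of miR-132 differed by -0.06 (SE 0.25, adjusted p = 0.877). Without any pseudocount, on the reads of the graft libraries alone, the difference of miR-212 was 1.65 (SE 0.39, adjusted p = 0.0724), the 3rd smallest p among 130 precursors. In that fit 0% of the precursors were called by limma, with 22 at an unadjusted p under 0.05.

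**Figure D3:**
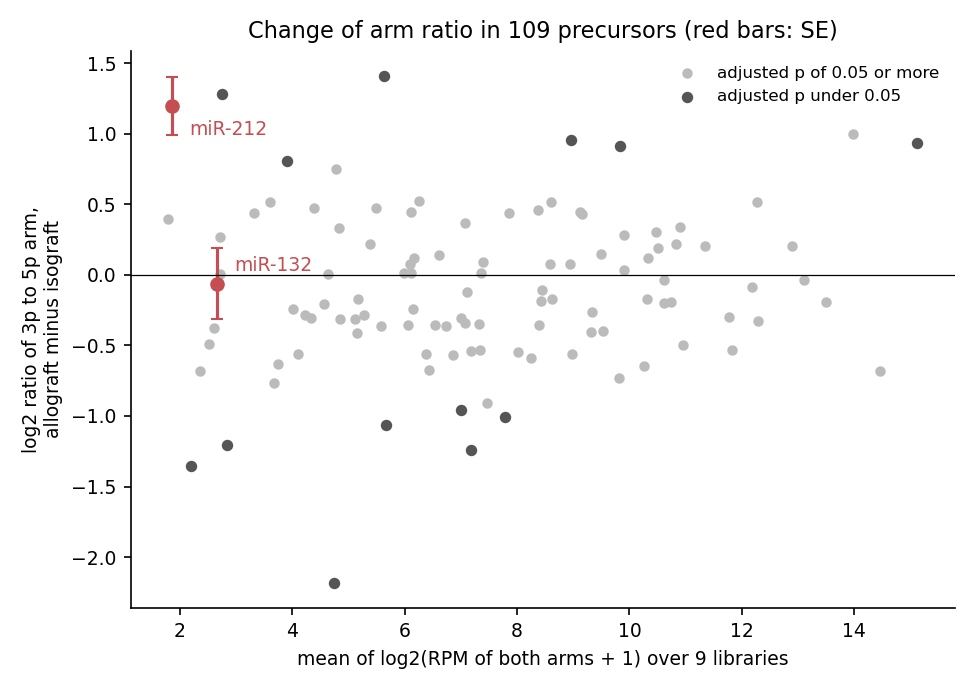
Difference in the log2 ratio of 3p to 5p arm, allografts minus isografts, for each of 109 precursors on the vertical axis, against the mean level of both arms on the horizontal axis; dark points passed an adjusted p of 0.05, and red points are miR-132 and miR-212 with their SE. miR-212, at 1.20, is among the least abundant precursors. Its ratio moved towards the 3p arm, past the threshold in the fit of all 9 libraries with 1 RPM added. Its 5p strand fell between the grafts (log2 difference -0.98), while its 3p strand was not called (0.22). miR-132, at -0.06, lies at 0 within its SE.

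Against normal corneas the arms could hardly be compared, since the 3 normal libraries held 25 reads of miR-132 and 2 of miR-212. The 3p share of miR-132 was 76.0% there (54.9 to 90.6), an interval that includes the 82.8% and 82.4% of the summed isograft and allograft reads. With 1 RPM added to arms that are nearly at 0, the log2 ratio of normal corneas is drawn to 0. The differences of 1.48 and 1.42 for miR-132 in isografts and allografts (adjusted p = 0.0021 and 0.0011), and of -0.72 and 0.48 for miR-212 (adjusted p = 0.0427 and 0.0933), carry that draw and are not read as arm changes. Of the 109 precursors, 10.1% were called in isografts and 29.4% in allografts.

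Within the pair of 3p arms miR-132-3p was the larger part. It made up 80.8% of their summed reads in isografts (76.8 to 84.3) and 74.6% in allografts (70.0 to 78.9), and 19 of 20 reads in normal corneas. The log2 ratio of miR-132-3p to miR-212-3p, with 1 RPM added, differed between isografts and allografts by less than the spread allows to be seen (exact permutation test, two-sided p = 0.2). Among the 5p arms the order was the reverse in isografts, where miR-132-5p made up 31.6% (25.7 to 38.0), and the strands were about equal in allografts, at 50.8% (41.6 to 60.0). The ranking of the 4 strands by mean RPM was thus miR-132-3p, miR-212-5p, miR-212-3p and miR-132-5p in isografts, and miR-132-3p, miR-212-3p, miR-132-5p and miR-212-5p in allografts. Only miR-132-3p stood clear of the others in every graft library. The ranges of the other 3 over a group's libraries overlapped with their neighbours in that order, although within each isograft library miR-212-5p was above both miR-212-3p and miR-132-5p.

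The 5 tested miRNAs whose pattern over the 9 libraries was nearest to that of miR-132-3p were miR-126a-3p, miR-143-3p, miR-542-3p, miR-139-5p and miR-145-3p. Nearness is the root mean square difference of log2(RPM + 1), each miRNA centred on its own mean, and it was 0.35, 0.37, 0.42, 0.43 and 0.43, against a median of 1.42 over the 280 miRNAs compared. The next, miR-143-5p, stood at 0.44. miR-126a-3p is known from endothelium, and miR-143 and miR-145 from smooth muscle and fibroblasts. miR-126a-3p rose from a mean of 492 RPM ± 278 for normal corneas to 4424 ± 2092 for isografts and 3715 ± 828 for allografts (± SD, n = 3 libraries a group). Its log2 differences from normal corneas were 3.16 and 3.03, with -0.13 between the grafts. These values are a description of 9 libraries in 3 groups. Any nearness includes the step between normal corneas and grafts, which other miRNAs share, and how much of it comes from that step was not computed. The 1 RPM added also shrinks the step of a miRNA that is as low in normal corneas as miR-132-3p. With 0.5 RPM added, the log2 differences of miR-132-3p from normal corneas were 3.38 in isografts and 3.22 in allografts. With 1 RPM they were 2.84 and 2.68. Nearness was not computed with another amount added, so the choice of neighbours holds for 1 RPM only.

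**Figure D4:**
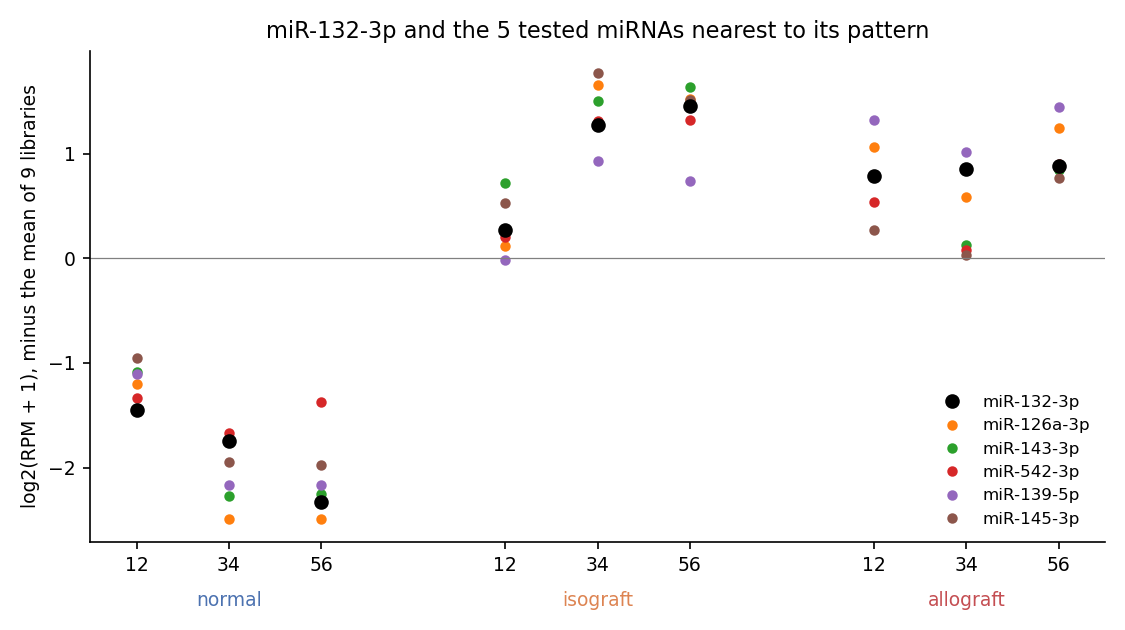
log2(RPM + 1) minus the mean of the 9 libraries, for miR-132-3p (black) and the 5 nearest miRNAs (colours), 1 position per library on the horizontal axis. All 6 are lowest in the normal corneas; miR-126a-3p follows miR-132-3p at a root mean square difference of 0.35.

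Several lists of cell type markers also differed between the groups. The endothelial arms of miR-126a, 2 of 2 listed, summed to between 346 and 857 RPM in normal corneas, 2095 and 6150 in isografts and 2955 and 4874 in allografts. The stroma markers, 8 of 8 listed, summed to between 9131 and 10779 RPM, 16303 and 35153, and 11613 and 22214. In that sum miR-143-3p alone had means of 1371, 11688 and 7130 RPM. Of the 8, 6 were called higher in isografts and 5 in allografts, where 16.7% and 23.1% of all tested miRNAs were. Between the grafts 0 rose and 2 fell, miR-145-5p and miR-199a-3p, while 59 of the 281 tested miRNAs fell. The leukocyte markers, 6 of 6 listed, summed to between 52.1 and 63.9 RPM in normal corneas, 142 and 300 in isografts and 2045 and 3657 in allografts. All 6 of them rose from isografts to allografts, with a median log2 difference of 3.01 where all tested miRNAs had -0.29 and 13.5% were called higher, while miR-132-3p stood at -0.16. In these 3 lists isograft 12 was the lowest isograft and normal 12 the highest normal cornea, as for miR-132-3p. Isograft 12 was also the lowest isograft for the epithelial and neuronal lists described next, so its low level was not particular to any of them. It was not the lowest for the red blood cell list. No marker of these lists was at 0 throughout a group.

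The epithelial markers, 8 of 8 listed and led by miR-184, summed to between 271148 and 420587 RPM in normal corneas, 159213 and 193990 in isografts and 37254 and 90969 in allografts. The neuronal list, with 9 of 9 listed and 5 tested, is of interest because miR-132 is abundant in neurons and the cornea is densely innervated. It summed to between 352 and 491 RPM, 316 and 592, and 338 and 489, and 0 of its 5 tested members rose in either graft, where 16.7% and 23.1% of all tested miRNAs did. In isografts 1 fell, miR-138-5p with a log2 difference of -1.76 (SE 0.36), and in allografts 2 fell, miR-138-5p at -1.78 (SE 0.36) and miR-134-5p, while 13 and 68 of the 281 tested miRNAs fell. These names were chosen after their values were seen. The red blood cell list, 4 of 4 listed and 2 tested, summed to between 82.4 and 343 RPM, 14.0 and 181, and 18.5 and 1068. Isograft 12 held the 181 RPM, against 14.0 and 29.1 in isografts 34 and 56. Allograft 34 held the 1068 RPM, against 19.7 and 18.5 in allografts 12 and 56. The part of any of these cell types in the level of miR-132 and miR-212 was not tested. In bulk tissue, more cells of a type and more of the miRNA per cell cannot be told apart.

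**Figure D5:**
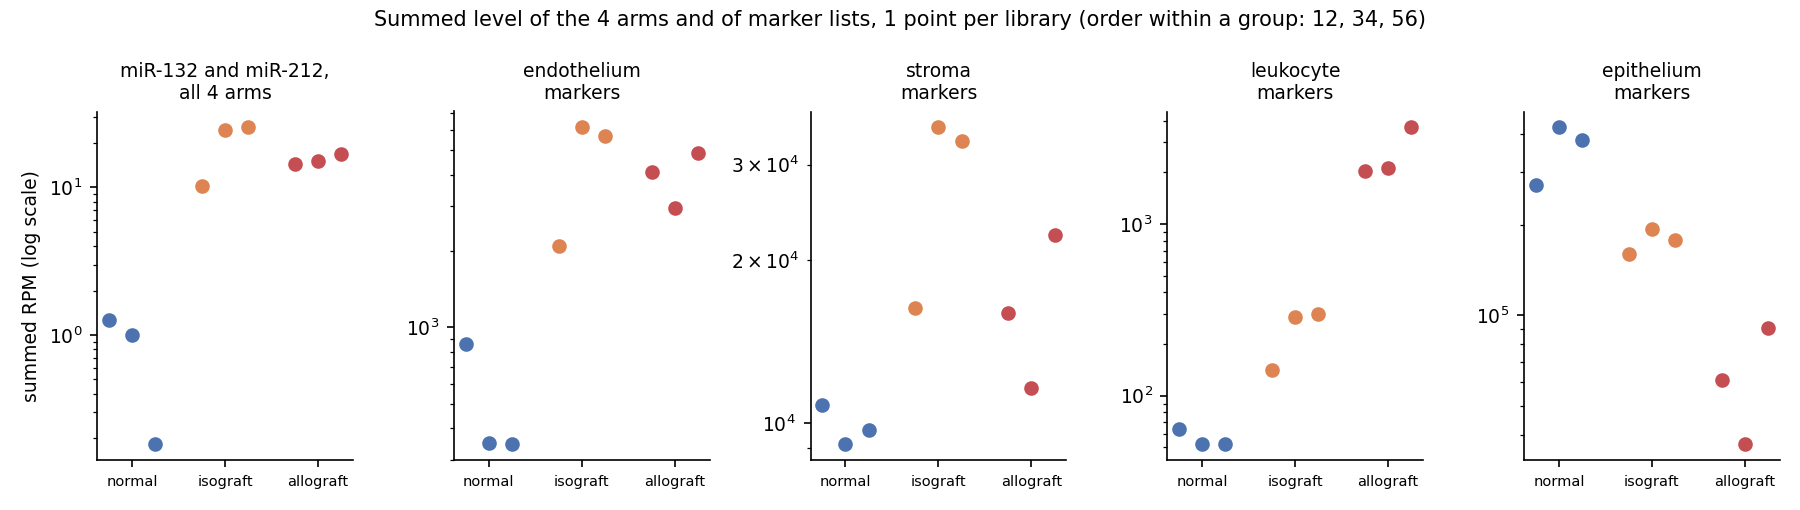
Summed RPM, on log axes that differ between panels, of the 4 strands of miR-132 and miR-212 and of the endothelium, stroma, leukocyte and epithelium marker lists, with 1 point per library in the order 12, 34, 56 within each group. Isograft 12 is the lowest isograft in every panel, the leukocyte markers rise from 52.1 to 63.9 RPM in normal corneas to at least 2045 RPM in allografts, and the epithelial markers fall.

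Other miRNAs known to be induced by inflammatory or growth signals formed a list of 13, the arms of miR-21, miR-146a, miR-146b, miR-155, miR-221 and miR-222 with miR-147, of which 11 were tested. In isografts 7 of 11 rose, where 16.7% of all tested miRNAs did, with a median log2 difference of 1.19 against 0.05 over all tested miRNAs. The range ran from miR-221-3p at 0.13 (SE 0.39) to miR-21-5p, a miRNA of wound repair, at 2.64 (SE 0.34), below the 2.84 of miR-132-3p. In allografts 8 of 11 rose, where 23.1% of all did, with a median of 3.36 against -0.14, up to miR-155-5p, which is made by activated leukocytes, at 5.43 (SE 0.39). From isografts to allografts 8 of 11 rose, where 13.5% of all did, with a median of 1.79 against -0.29. None of the 4 strands of miR-132 and miR-212 was called higher there. In the fit that holds all 4, 55 of the 606 miRNAs were, so none among 4 is near the share of all. The comparisons share libraries, so their counts are not independent of one another. Both arms of miR-21, miR-146a and miR-146b were among those that rose, and arms of 1 hairpin are not independent either. This list, like the others, was chosen with earlier results of these data known, so its counts are a description.

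A list of miRNAs linked to vessel growth held 12, of which 10 were tested and miR-296-5p was at 0 in all libraries. In isografts 3 of 10 rose, where 16.7% of all tested miRNAs did. They were both miR-126a arms and miR-322-5p, and the median of the list was -0.06. In allografts the same 3 of 10 rose, a share near the 23.1% of all tested miRNAs, and miR-130a-3p fell, with a log2 difference of -0.99 (SE 0.41, adjusted p = 0.0499), with a median of 0.01. Between the grafts 0 of 10 were past the threshold by limma.

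The nearest miRNA genes on either side of the cluster in the gene table were Mir195 and Mir6326. miR-6326 was listed at 0 in all 9 libraries. miR-195-5p had log2 differences of -0.22 in isografts (SE 0.44, adjusted p = 0.813) and -0.81 in allografts (SE 0.44, adjusted p = 0.137), and miR-195-3p had 0.54 (SE 0.38, adjusted p = 0.411) and -0.58 (SE 0.38, adjusted p = 0.224). Neither arm of miR-195 passed the threshold in the grafts against normal corneas, where the 4 strands of miR-132 and miR-212 rose. Between allografts and isografts miR-195-3p fell, with a log2 difference of -1.12 (SE 0.38, adjusted p = 0.0233).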

How the data were processed

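The authors deposited RPM values for 765 mature miRNAs in 9 columns, each matched to a library by its title. The tools named are bcl2fastq and BWA, with the build rn6, per the submitters' processing notes. Versions, trimming, annotation and the handling of reads with several matches are not given in the sources used. In each library 100% of the deposited RPM values were whole multiples of 1 read within 0.1 read. RPM was used as log2(RPM + 1).

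limma 3.58.1 in R 4.3.3, with a mean-variance trend, was fitted to all 9 libraries without covariates, over 281 miRNAs that reached 5 RPM in 3 or more libraries, over all 606 with a read, and over arm ratios. Benjamini-Hochberg adjusted p-values under 0.05 were called. edgeR 4.0.16 and DESeq2 1.42.0 were run on the recovered reads. Single measures had exact permutation tests; shares have exact binomial and levels Poisson 95% intervals, for counting error only.

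Members and lists were chosen with earlier results of these data known. Named were the members, the 5 nearest patterns, shared seeds, neighbouring miRNA genes and the extremes of lists; miR-322-5p and miR-195-3p follow from these counts. Pairs of libraries within a group differed by a chi-square of 70.5 to 810 per degree of freedom, so none was a recount of another library. Whether libraries were made from the same RNA cannot be told from this measure.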

Additional observations from a re-analysis of the deposited data

How the results depend on the processing

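The rises of miR-132-3p in both grafts kept their direction and their call in all 22 other settings each, from 1.45 to 4.02 in isografts and from 1.31 to 4.08 in allografts on the log2 scale. Those of miR-212-3p and miR-212-5p did so in all 21. For miR-132-5p in isografts the value of 1.36 was not past the threshold without the trend (adjusted p = 0.0526) or with only the compared groups (0.0957), and leaving out single libraries gave 1.10 to 1.75; in allografts the latter gave 1.07 to 1.47. Its exact p over the groups, 0.0429, ran from 0.0107 to 0.121 without single libraries. miR-212-5p between the grafts ran from -1.26 to -0.82 without single libraries, and at -0.98 was not past the threshold with the graft libraries alone. Leaving out libraries is a test on fewer samples; for the other losses the cause was not tested.

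Differences between allografts and isografts that were not called changed sign. miR-132-3p, at -0.16, stood at 0.061 under median-of-ratios scaling, 0.23 under scaling to the listed miRNAs, 0.067 in edgeR and 0.060 in DESeq2, and from -0.52 to 0.069 without single libraries. miR-132-5p, at -0.10, stood at 0.11, 0.22, 0.0077 and 0.19 in these settings and from -0.49 to 0.16. miR-212-3p ran from -0.11 to 0.42 without single libraries. These scalings moved the median over all tested miRNAs in this comparison from -0.29 to -0.08 and 0.10, and RPM without miR-184 to -0.44.

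The arm ratio of miR-212 between the grafts kept its call in 13 of 14 settings. The exception was 1.65 without a pseudocount, the only setting on the graft libraries alone. Against normal corneas its call in isografts was lost in 6 of 13 settings (adjusted p up to 0.166): it was -0.83 with a pseudocount of 0.5 RPM and ran from -0.81 to -0.66 without single libraries. It was 0.62 and past the threshold in allografts without isograft 12 and allograft 34. That of miR-132 between the grafts was 0.15 without those libraries and ran from -0.25 to 0.12 without single ones. The exact p of the ratio of miR-132-3p to miR-212-3p over the groups, 0.0107, was 0.136 with a pseudocount of 0.5 RPM and ran from 0.0071 to 0.05 without single libraries.

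Called miRNAs in isografts numbered 60, and 119 in DESeq2, 114 in edgeR, 115 under median-of-ratios scaling, 122 scaled to the listed miRNAs and 30 with a filter at 50 RPM, which removed all members. Over all 606 miRNAs they numbered 70, and 134, 138, 145 and 147 in those first 4 settings, with 39 without isograft 34 and 40 without normal 56; the 186 in allografts fell to 122 without normal 56. In allografts, with the filter at 5 RPM, they numbered 133, and 63 with that filter. Between the grafts they numbered 97, with 171, 163, 168 and 44 in DESeq2, in edgeR, under median-of-ratios scaling and with that filter, and 52 without allograft 34 to 147 without isograft 12. Called precursors numbered 11, 32 and 14 in these comparisons, 3, 16 and 5 with both arms at 5 RPM, which removed miR-132 and miR-212, and 7 and 9 with 0.5 RPM for the first and the last. Without isograft 12 and allograft 34 the first and the last were 17 and 9, and without single libraries they ran from 6 (normal 56) to 18 (isograft 12), from 20 (allograft 34) to 44, and from 8 (allograft 34) to 26 (isograft 56). The second was 21 without normal 34 or normal 56.

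The numbers in the titles as a replicate block changed no call of a member or of its arm ratio: miR-132-3p was 2.84 and 2.68 and miR-212-5p -0.98 (adjusted p = 0.0115) between the grafts. Over the 281 tested miRNAs the block raised the calls from 60, 133 and 97 to 66, 143 and 112. Same-numbered libraries showed no common deviation (correlations from -0.51 to 0.56, with 2 of 9 libraries closest to their own number). With 3 libraries a group these values cannot exclude that the numbers pair them. Depth limits the low strands: 3 reads equal 0.247 to 0.273 RPM, and the normal corneas held 27 reads of all 4 strands.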
